A study of Homo sapiens with 6 samples.

Results

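The 58 genes described here are nuclear genes for subunits of the oxidative phosphorylation (OXPHOS) complexes. They were taken from a list of gene symbols, with 21 genes for complex I, 3 for complex II, 9 for complex III, 10 for complex IV and 15 for complex V. A further 20 subunit genes, 17 of them of complex I, stand outside the list and are given with the related genes. Together the 5 count matrices held 263 transcripts of these genes, out of 46484 human transcripts and 12472 human genes. The counts were unique molecular identifier (UMI) counts, in which copies of a captured RNA molecule made by PCR should be counted once. The unit used throughout is the share of human counts in human cells, as a percent for a group of genes and as counts per 1000000 human counts (CPM) for a gene. UMI counts were not divided by transcript length, so levels are compared between libraries and not between genes, and genes are ranked by CPM only to choose which to describe.

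Complexes I to IV of the inner mitochondrial membrane pass electrons from NADH and succinate to oxygen, and complexes I, III and IV pump protons as they do so. Complex V, the ATP synthase, lets the protons flow back and makes ATP. Most subunits are encoded in the nucleus, made in the cytosol and imported, while a small set at the core of complexes I, III, IV and V is encoded by the mitochondrial genome.

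The libraries were nanopore single-cell RNA libraries from a mixture of human cells, labelled JJN3 (a myeloma line), and mouse cells, labelled 5TGMG1 (5TGM1 in the study's text). The study's text also names Jurkat, a T cell line, among its human cells. Cells were captured either by 10X Chromium, with 30 or 35 PCR cycles in the labels and 2000 labelled cells, or by Drop-seq on barcoded beads, with 25 cycles and 1000 labelled cells or with 30 or 35 cycles and 500 labelled cells. The labels name no drug, knockout or other treatment, both are established lines, and every group was 1 library. No group could be checked against a replicate and no test between groups was made: every interval is a 95% interval of counting error, and a gene is called higher or lower by size alone, at 2-fold or more.

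To pick human cells, barcodes were ranked by counts and kept up to the labelled number, and those with at least 90% human counts were used. There were 251, 166 and 165 human cells in the 25-cycle, 30-cycle and 35-cycle Drop-seq libraries, and 1006 and 911 in the 30-cycle and 35-cycle 10X libraries. They held 115245, 67144 and 93499 human counts in Drop-seq, and 161961 and 199308 in 10X, with a median per human cell of 256, 237.5 and 344 in Drop-seq, against 117 and 171 in 10X. Stored values began at 1 in the 25-cycle library, at 3 in the later pair of Drop-seq libraries and at 2 in 10X. A gene at 0 is therefore described as listed at 0, since lower entries may have been removed.

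The human cells of the 2 platforms did not carry the same markers. In the 10X libraries all 10 listed plasma cell markers had counts, in sum 0.668% and 0.440% of human counts at 30 and 35 cycles, led by JCHAIN and PRDM1 (392 counts each) at 30 cycles and by JCHAIN and MZB1 (310 and 280) at 35 cycles, genes characteristic of antibody-secreting cells. Among the 12 T cell markers, 1 had counts in the 30-cycle 10X library (CD28, 2 counts) and none in the 35-cycle library. In Drop-seq, MZB1 alone of the plasma cell markers had counts (15, 5 and 7), while 10, 6 and 7 of the T cell markers had counts, between 0.306% and 0.356% of human counts, led by CD1E and CD3G. The Drop-seq libraries thus went against the label of the human line, and the platform and the human cells captured on it cannot be told apart in any comparison below.

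The subunit c genes ATP5MC1, ATP5MC2 and ATP5MC3 code for the same mature protein of the ATP synthase ring, so their messages can be told apart by bases and not by product. The last 120 coding bases of 1 transcript of each, cut from GENCODE release 44 on hg38, are shown because they show how far a read must resolve bases to assign these members. Capitals mark the 31 positions at which the sequences are not all equal.
ATP5MC1: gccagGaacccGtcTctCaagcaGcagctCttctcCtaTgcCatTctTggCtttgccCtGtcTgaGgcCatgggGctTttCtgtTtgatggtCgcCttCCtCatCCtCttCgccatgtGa
ATP5MC2: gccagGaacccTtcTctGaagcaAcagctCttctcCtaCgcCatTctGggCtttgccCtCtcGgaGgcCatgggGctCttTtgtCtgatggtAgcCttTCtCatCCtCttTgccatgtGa
ATP5MC3: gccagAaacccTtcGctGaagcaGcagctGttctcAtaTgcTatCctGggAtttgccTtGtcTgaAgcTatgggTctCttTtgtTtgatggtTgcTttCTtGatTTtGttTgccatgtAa
Over these bases ATP5MC1 and ATP5MC2 were 89.2% identical, and ATP5MC3 was 79.2% identical to either. The transcripts were ENST00000393366 at chr17:48892787-48895871 on the plus strand, ENST00000394349 at chr12:53665170-53676083 on the minus strand and ENST00000284727 at chr2:175176258-175181710 on the minus strand.

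Oxidative phosphorylation genes made up nearly the same share of human counts in each Drop-seq library and a much smaller one in 10X. In Drop-seq the 58 genes had 2607, 1514 and 2108 counts at 25, 30 and 35 cycles. That was 2.26% (95% interval 2.18 to 2.35), 2.25% (2.14 to 2.37) and 2.25% (2.16 to 2.35) of human counts. In 10X they had 487 counts at 30 cycles and 540 at 35 cycles, which was 0.301% (0.275 to 0.329) and 0.271% (0.249 to 0.295). The Drop-seq share was 7.50 times the 10X share at 30 cycles (6.77 to 8.32) and 8.32 times at 35 cycles (7.57 to 9.16). The 58 genes were listed with earlier results of these data known, so these ratios are those of the list chosen. With entries below 3 left out of every library the 10X shares were lower still, at 0.0437% and 0.0780%. Counts were listed for 53, 47 and 49 of the 58 genes in Drop-seq and for 36 and 38 in 10X.

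The listed members of every complex had a lower share in 10X. Those of complex I, which takes electrons from NADH, made up 0.567%, 0.651% and 0.626% of human counts in Drop-seq, against 0.0976% and 0.120% in 10X. For complex II, the succinate dehydrogenase, the shares were 0.0521%, 0.0849% and 0.102% in Drop-seq, against 0.00864% and 0.00100% in 10X, the last from 2 counts. Complex III, which hands electrons to cytochrome c, stood at 0.296%, 0.280% and 0.329% in Drop-seq, against 0.0296% and 0.0301% in 10X. Complex IV, the cytochrome c oxidase, stood at 0.626%, 0.661% and 0.683% in Drop-seq, against 0.0710% and 0.0567% in 10X. Complex V stood at 0.720%, 0.578% and 0.514% in Drop-seq, against 0.0938% and 0.0627% in 10X. No 10X interval reached a Drop-seq interval of the same complex. At 30 cycles the ratio of Drop-seq to 10X ran from 6.16 for complex V to 9.82 for complex II, and at 35 cycles from 5.20 for complex I to 101 for complex II, the latter against 2 counts.

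These values depended on which subunits are listed. With the 17 further subunits, complex I made up 0.897%, 0.973% and 0.889% of human counts in Drop-seq, against 0.305% and 0.239% in 10X. Its ratio at 30 cycles was then 3.19 (2.83 to 3.59) in place of 6.67, and at 35 cycles 3.71 (3.31 to 4.16). With SDHA, the flavoprotein subunit, complex II had 57 counts in Drop-seq and 24 in 10X at 30 cycles, a ratio of 5.73 (3.50 to 9.65), and 95 and 4 counts at 35 cycles. Complex V, with 2 more genes, changed little, to 6.60 and 8.67 at 30 and 35 cycles, and complexes III and IV had no further gene. Under either list each complex stayed lower in 10X, and the larger lists were added after the data were seen.

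**Figure D1:**
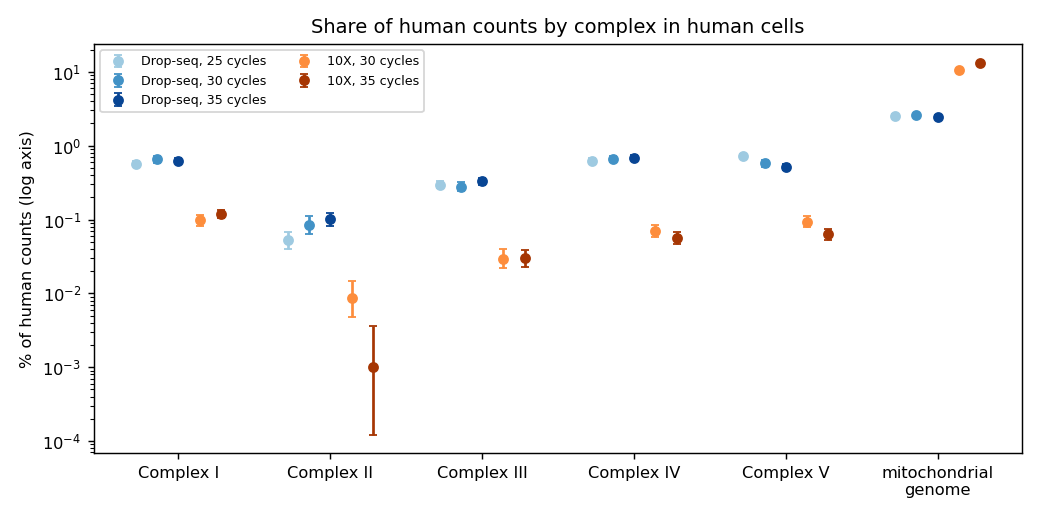
Percent of human counts (log axis) for the nuclear-encoded genes of complexes I to V and for the 13 mRNA genes of the mitochondrial genome, in human cells of each library; points are shares and bars 95% exact binomial intervals. For every nuclear-encoded complex both 10X points lie below the 3 Drop-seq points, and for the mitochondrial genome both lie above.

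The 13 protein-coding genes of the mitochondrial genome, whose products join complexes I, III, IV and V, went the other way. They made up 2.56%, 2.58% and 2.48% of human counts in Drop-seq, against 10.7% and 13.2% in 10X. There were thus 0.883, 0.875 and 0.911 nuclear-encoded counts for each mitochondrial count in Drop-seq, and 0.0281 and 0.0205 in 10X. Member counts were summed over transcripts, which gave 2.27, 2.11 and 2.21 times the highest transcript in Drop-seq, and 1.67 and 1.63 times in 10X. For the mitochondrial genes the sum equalled the highest transcript, so the summing raised these ratios, and more so in Drop-seq. MT-CO1, a catalytic subunit of complex IV, was the highest of the 13 in all 5 libraries, with 6707, 7759 and 6631 CPM in Drop-seq, against 18714 and 22658 CPM in 10X. MT-ND4, a subunit of complex I, had 2933, 3306 and 3337 CPM in Drop-seq, against 12892 and 13858 CPM in 10X. The order of the platforms was the same for these and opposite to that of the nuclear-encoded partners.

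With the mitochondrial genome and immunoglobulin genes taken out of the denominator, the share of the 58 genes became 0.368% and 0.366% in the 10X libraries. Both remained below the lowest Drop-seq share found under any alternative way of counting, 2.09%.

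Gene by gene, 37 of the 58 had a lower share in both 10X libraries than in all 3 Drop-seq libraries, 3 had a higher share and 18 overlapped. The 3 higher genes were NDUFB8 and NDUFC2 of complex I and UQCRC2 of complex III. Of the 35 genes with at least 50 counts over the 5 libraries, 28 were lower and 2 were higher in 10X, but only 4 of the 35 reached 50 counts in the 10X pair, so most passed through the platform where they were high. Over the 1796 human genes with as many counts, 47.9% were lower and 31.3% were higher in 10X in the same sense. No share was taken over genes with fewer counts. The 37 of 58 and the numbers by complex below include such genes and are not read as a result. A total of 24 of the 58 genes were listed in all 5 libraries, and 9 were listed in every Drop-seq library and at 0 in both 10X libraries: NDUFA3, NDUFB4, UQCRB, UQCRFS1, UQCRQ, COX5B, COX6C, ATP5ME and ATP5PB. None was at 0 in all 5 libraries.

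**Figure D2:**
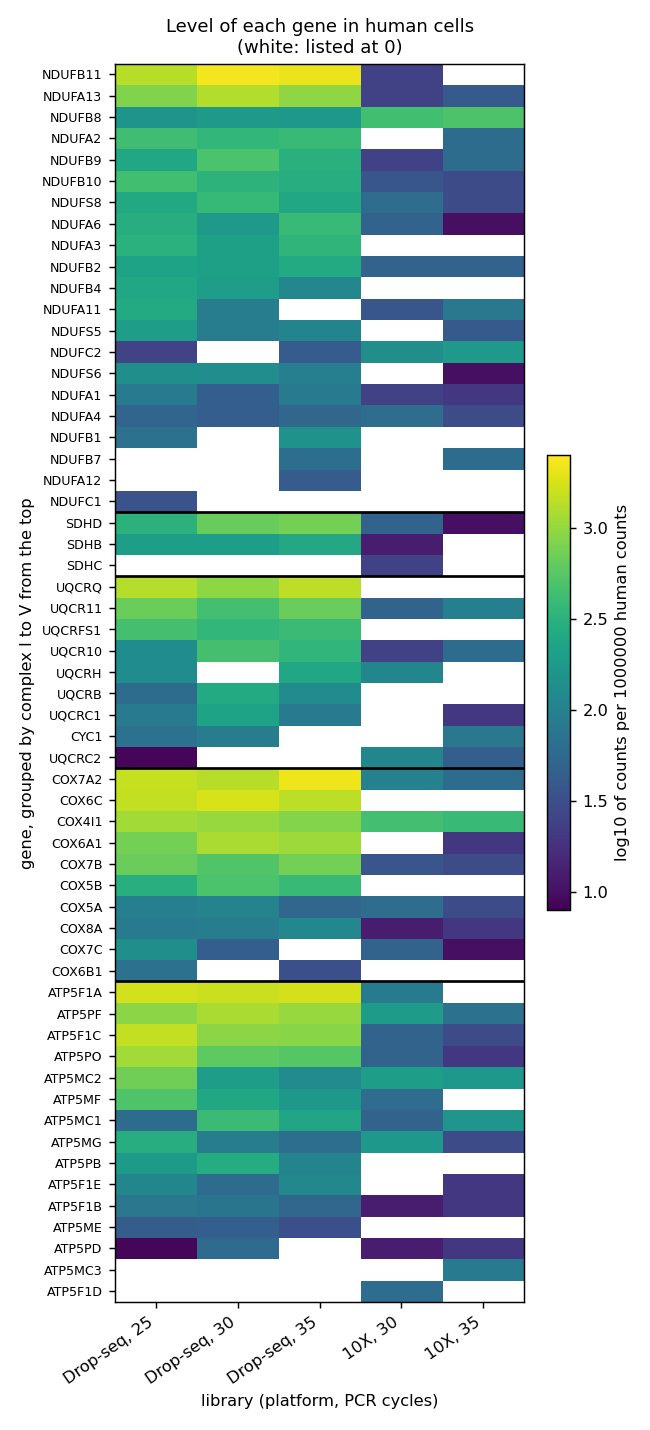
Level of each of the 58 genes in the 5 libraries, as log10 of CPM (colour), grouped by complex I to V from the top and ordered by mean level within a complex; white marks genes listed at 0. The 10X columns are darker or white for most genes, and NDUFB8 is brighter there.

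Among the 21 listed genes of complex I the highest mean levels were those of NDUFB11, NDUFA13 and NDUFB8. These are accessory subunits of the membrane arm and its surroundings. The most abundant transcript of NDUFB11 was ENST00000377811, with 3 exons, at chrX:47142216-47144702 on the minus strand of hg38. NDUFB11 had 155, 154 and 197 counts in Drop-seq, against 4 and 0 counts in 10X. NDUFA13, whose main transcript ENST00000507754 has 5 exons at chr19:19516225-19528198 on the plus strand, had 97, 87 and 91 counts in Drop-seq, against 4 and 8 in 10X. Both genes were high in all 3 Drop-seq libraries and near the smallest stored values in 10X. NDUFB8, read from the 5-exon transcript ENST00000299166 at chr10:100523740-100529871 on the minus strand, had 18, 12 and 16 counts in Drop-seq, against 72 and 101 in 10X. NDUFB8 was the highest of the 21 listed complex I genes in both 10X libraries. There it came from 34 and 46 cells with at most 6 counts in a cell.

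NDUFC2, another accessory subunit, followed NDUFB8 among the listed genes in 10X, with 3, 0 and 4 counts in Drop-seq, against 22 and 35 in 10X. Apart from the 3 leading genes, counts of the listed genes reached 51 in Drop-seq (NDUFB10) and 35 in 10X (NDUFC2). Of the 21, 13 were lower in both 10X libraries, 2 were higher and 6 overlapped: NDUFA4, NDUFA11, NDUFA12, NDUFB1, NDUFB7 and NDUFC1. Over all human genes with at least 50 counts, 47.9% were lower and 31.3% were higher. NDUFA4, named for complex I and now placed with complex IV, had 6, 3 and 5 counts in Drop-seq, against 10 and 6 in 10X. NDUFA12 was listed with 4 counts in the 35-cycle Drop-seq library alone, and NDUFC1 with 4 counts in the 25-cycle library alone.

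Complex II consists wholly of nuclear products. SDHD, a membrane anchor, had 37, 44 and 71 counts in Drop-seq, against 8 and 2 in 10X, and its main transcript ENST00000375549 lies at chr11:112086873-112095794 with 4 exons on the plus strand. SDHB, the iron-sulphur subunit, had 23, 13 and 24 counts in Drop-seq, against 2 and 0 in 10X. SDHC, the other anchor, was listed at 0 in Drop-seq and with 4 and 0 counts in 10X. SDHC thus rested on 4 counts in the 30-cycle 10X library and overlapped between the platforms.

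In complex III the leading genes were UQCRQ and UQCR11, small accessory subunits, and UQCRFS1, the Rieske iron-sulphur protein. UQCRQ (ENST00000378667, 3 exons, chr5:132866630-132867687, plus strand) had 153, 64 and 131 counts in Drop-seq and was listed at 0 in both 10X libraries. UQCR11 had 79, 30 and 63 counts in Drop-seq, against 8 and 19 in 10X. UQCRFS1, read from a single transcript of 3086 bases and 2 exons at chr19:29205320-29213151 on the minus strand, had 53, 24 and 38 counts in Drop-seq and was listed at 0 in 10X. UQCRC2, a core subunit, showed the opposite order with 1, 0 and 0 counts in Drop-seq, against 18 and 9 in 10X. Of the 9 genes 6 were lower in both 10X libraries, and UQCRH and CYC1, the cytochrome c1 gene, overlapped. The share lower among all human genes with at least 50 counts was 47.9%.

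In complex IV the highest mean levels were those of COX7A2, COX6C and COX4I1. COX7A2 (ENST00000370081, 5 exons, chr6:75237675-75250323, minus strand), a small accessory subunit, had 175, 90 and 201 counts in Drop-seq, against 16 and 12 in 10X. COX6C had 172, 120 and 131 counts in Drop-seq and was listed at 0 in both 10X libraries. COX4I1, the largest nuclear-encoded subunit and one that binds ATP, had 131, 69 and 81 counts in Drop-seq, against 73 and 79 in 10X. As a share of human counts COX4I1 was at 1137, 1028 and 866 CPM in Drop-seq, against 451 and 396 CPM in 10X, the smallest gap among the 3. Its main transcript ENST00000562336 has 5 exons at chr16:85799693-85807044 on the plus strand. COX6A1, the next gene by level, had 87, 81 and 100 counts in Drop-seq, against 0 and 4 in 10X. Of the 10 genes 7 were lower in both 10X libraries and COX5A, COX6B1 and COX7C overlapped, beside 47.9% lower among all human genes with at least 50 counts.

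In complex V the leaders were ATP5F1A, the alpha subunit of the catalytic head, ATP5F1C, the gamma subunit of the central stalk, and ATP5PF, coupling factor 6 of the outer stalk. ATP5F1A (ENST00000282050, 13 exons, chr18:46084144-46104233, minus strand) had 195, 106 and 163 counts in Drop-seq, against 14 and 0 in 10X. ATP5F1C had 169, 62 and 84 counts in Drop-seq, against 8 and 6 in 10X. ATP5PF (ENST00000400087, 4 exons, chr21:25724480-25735646, minus strand) had 106, 82 and 97 counts in Drop-seq, against 30 and 14 in 10X. These 3 genes were chosen by a mean over more Drop-seq than 10X libraries, which favours genes high in Drop-seq. Their order between the platforms is therefore not read. Of the 15 genes 9 were lower in both 10X libraries and 6 overlapped, among them all 3 subunit c genes. Among all human genes with at least 50 counts, 47.9% were lower.

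Which subunit c gene had the most counts differed from library to library. ATP5MC2 had 83, 13 and 12 counts in Drop-seq, against 32 and 34 in 10X. ATP5MC1 had 7, 27 and 22 counts in Drop-seq, against 8 and 32 in 10X. ATP5MC3 was listed at 0 in 4 libraries and had 17 counts in the 35-cycle 10X library. These counts rested on few cells: in the 30-cycle Drop-seq library the 27 counts of ATP5MC1 and the 13 of ATP5MC2 came from 1 cell each, and in the 35-cycle 10X library ATP5MC1, ATP5MC2 and ATP5MC3 came from 5, 5 and 4 cells.

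Counts of most members sat in few cells. A member count was found in 60.2%, 46.4% and 52.7% of human cells in Drop-seq and in 13.0% and 15.3% in 10X. A listed member was found in a median of 5, 2 and 2 cells in Drop-seq and 2 cells in either 10X library. In the 30-cycle Drop-seq library the 106 counts of ATP5F1A came from 3 cells, and the 154 counts of NDUFB11 from 13 cells. COX6A1 was the most widely found member in Drop-seq, in 25, 15 and 16 cells, and NDUFB8 in 10X. The 10 human cells with the most member counts held 29.7%, 35.4% and 36.7% of member counts in Drop-seq, against 20.7% and 20.9% in 10X. The 10 human cells with the most human counts held 24.1%, 27.3% and 26.8% of all human counts in Drop-seq. In 10X, with more human cells, they held 5.26% and 5.22%. The intervals treat counts as independent, so they are too narrow, for single genes and also for the complexes and the 58 genes together.

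Many counts were also counted on more than 1 transcript of a gene. In 69.3%, 61.7% and 64.9% of cell and member pairs in Drop-seq, and in 38.7% and 39.5% in 10X, several transcripts of the gene had counts. In 72.9%, 60.9% and 67.3% of these pairs in Drop-seq and in 98.2% and 96.8% in 10X, the transcripts had equal counts. The sum over transcripts was 2.27, 2.11 and 2.21 times the highest transcript for members in Drop-seq, and 1.67 and 1.63 times in 10X. For all human genes the corresponding values were 2.35, 2.23 and 2.25 in Drop-seq, against 1.52 and 1.59 in 10X. Transcripts annotated as protein coding held 77.7%, 79.1% and 79.7% of member counts in Drop-seq, against 82.8% and 85.4% in 10X, and those annotated for nonsense-mediated decay held 14.4%, 15.8%, 15.9%, 8.62% and 3.70% in the same order. Which isoform a molecule came from cannot be read from such equal counts.

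On barcodes shared by libraries of a platform, the same members were found again in Drop-seq and seldom in 10X. The libraries of a platform shared most human cell barcodes: 135 between the 25-cycle and 30-cycle, 133 between the 25-cycle and 35-cycle and 145 between the 30-cycle and 35-cycle Drop-seq libraries, and 722 between the 10X libraries, with 0 shared between platforms. Within the 145 shared Drop-seq barcodes, 138 pairs of a cell and a member were found at 30 cycles and 167 at 35 cycles, and 121 were found in both, which is 87.7% of the first and 72.5% of the second. Within the 722 shared 10X barcodes there were 115 pairs at 30 cycles and 134 at 35 cycles, and 6 in both, 5.22% and 4.48%. Drop-seq at 25 cycles held 118 of the 124 pairs found at 30 cycles (95.2%) and 151 of the 156 found at 35 cycles (96.8%). In the other direction, 47.4% of the 249 pairs at 25 cycles were found at 30 cycles and 57.0% of 265 at 35 cycles.

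Nuclear human genes as a whole kept 21.3% and 20.0% of their pairs between the 10X libraries, more than the members did, and a share close to that of the members between the Drop-seq libraries. The members had a median of 4 counts in either 10X library, and no share was taken over genes of like level. The lower share in 10X is therefore not read as particular to the members. For COX4I1, 6 cells at 30 cycles and 6 at 35 cycles were the same 6 cells in Drop-seq. In 10X 9 of the shared barcodes carried it at 30 cycles, 11 at 35 cycles and 0 at both. NDUFB8 was found on 30 and 38 shared 10X barcodes, 4 of them the same. The Drop-seq libraries were therefore not separate draws of cells, and the ratios between them compare much the same cells.

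**Figure D3:**
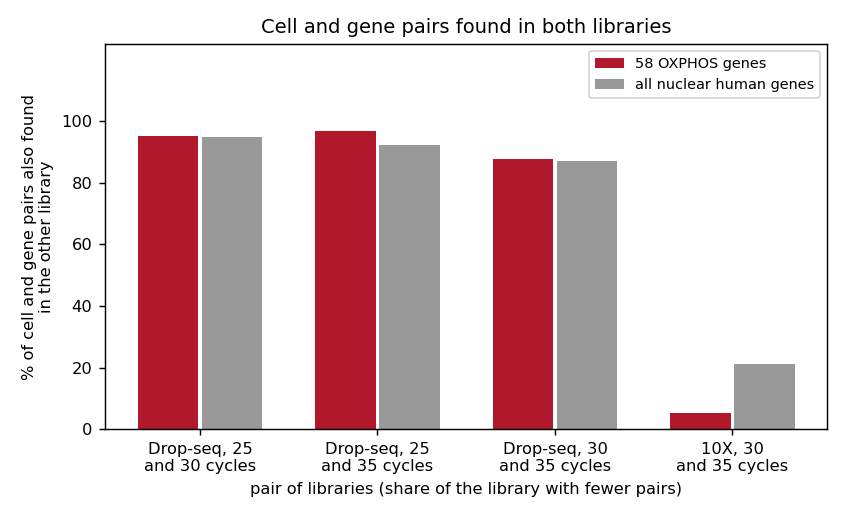
Percent of cell and gene pairs that were found again in the other library of a platform, over barcodes that were human cells in both, as a share of the library with fewer pairs; red bars are the 58 OXPHOS genes and grey bars all nuclear human genes. In Drop-seq 87.7% to 96.8% of the member pairs were found again and in 10X 5.22%, while taken from the library with more pairs the member values were 47.4% to 72.5% and 4.48%.

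Between 30 and 35 cycles the Drop-seq share did not move beyond counting error. The log2 ratio of the share of all 58 genes, 35 against 30 cycles, was -0.00032 (-0.10 to 0.10). Among the 19 members with at least 50 counts over both libraries, 0 were called higher and 0 lower, where 4.89% and 3.21% of the 654 human genes compared were called. The highest ratios were those of COX7A2 (0.68, 0.32 to 1.06), UQCR11 (0.58, -0.06 to 1.27), UQCRQ (0.55, 0.11 to 1.01) and COX7B (0.53, -0.06 to 1.17). The lowest were those of NDUFB9 (-0.66, -1.44 to 0.10), NDUFA13 (-0.41, -0.85 to 0.03), UQCR10 (-0.39, -1.14 to 0.37) and COX5B (-0.35, -1.07 to 0.37). The median over members was -0.10, beside -0.06 over all genes compared.

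Between 30 and 25 cycles, with entries below 3 left out of the 25-cycle library, the share was again within counting error. The 25-cycle library was made with an earlier sequencing kit than the other libraries, so kit and cycle number cannot be told apart here. Members had 1514 counts at 30 cycles and 1856 at 25 cycles, 2.25% and 2.31% of human counts, a log2 ratio of -0.03 (-0.13 to 0.06). Of 22 members compared, NDUFB9 was called higher at 30 cycles and ATP5MC2, ATP5PO and ATP5MF lower, where 11.5% of 602 human genes were called higher and 18.8% lower. NDUFB9 went from 19 to 33 counts, a log2 ratio of 1.04 (0.20 to 1.95). The subunit c gene ATP5MC2 went from 49 to 13 counts, -1.62 (-2.66 to -0.75). ATP5PO, the outer-stalk subunit that links head and membrane, went from 106 to 40 counts, -1.14 (-1.71 to -0.61). ATP5MF, a membrane subunit, went from 43 to 17 counts, -1.05 (-1.98 to -0.24). With entries as deposited ATP5MC2 alone was called lower, at -1.85, and SDHD alone higher, at 1.03, while ATP5MF, ATP5PO and NDUFB9 stood at -0.99, -0.90 and 0.96. With the highest transcript of each gene, which left fewer counts, ATP5PO alone of the members still at 50 counts was called, at -1.16.

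All 3 genes called lower belonged to complex V, which as a whole had a log2 ratio of -0.39 (-0.58 to -0.21), while complexes I to IV lay between 0.03 and 0.34. The complex V value includes those 3 genes, so it is not separate from their calls. At 30 cycles ATP5MC2, ATP5PO and ATP5MF were found in 1, 4 and 2 cells. The other genes at the ends of the range were COX5B (0.97), SDHD (0.67) and NDUFB11 (0.54) above 0 and NDUFA2 (-0.78) below. In human cells with at least 95% human counts the ratios of NDUFB9, ATP5MC2 and ATP5MF changed sign, to -0.33, 3.64 and 4.02, and ATP5MF was then listed at 0 at 25 cycles. The stricter limit left 29484 human counts at 25 cycles, of 80373, so those calls depended on cells below it. The share of T cell markers had a log2 ratio of 0.16 (-0.10 to 0.42) in the same comparison.

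**Figure D4:**
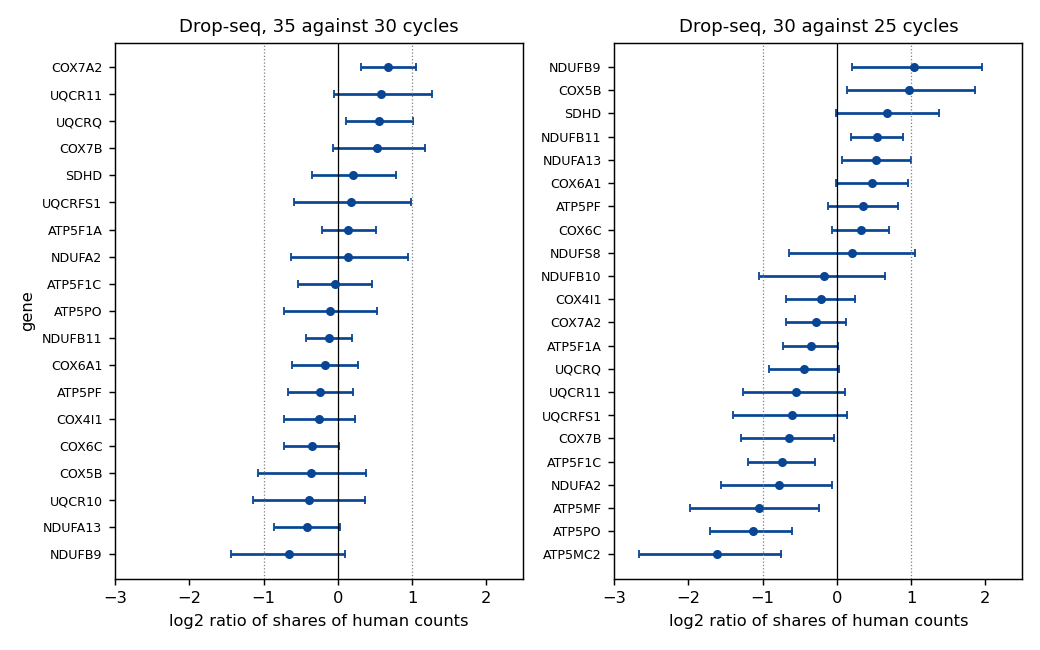
Log2 ratio of the share of human counts for each member compared in Drop-seq, 35 against 30 cycles (left, 19 genes) and 30 against 25 cycles (right, 22 genes); points are ratios, bars 95% counting intervals and dotted lines the 2-fold limits. On the left no point lies beyond a dotted line, and on the right NDUFB9 lies above and ATP5MC2, ATP5PO and ATP5MF lie below.

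In 10X the share at 35 cycles against 30 cycles had a log2 ratio of -0.15 (-0.33 to 0.03). Only 4 members reached 50 counts, and 0 of them were called, where 12.1% of 824 human genes were called higher and 22% lower. Their ratios were 0.36 for NDUFC2 (-0.44 to 1.21), 0.19 for NDUFB8 (-0.26 to 0.65), -0.19 for COX4I1 (-0.66 to 0.29) and -0.21 for ATP5MC2 (-0.95 to 0.53). By complex, complex I had a log2 ratio of 0.30 (0.01 to 0.60), complex V of -0.58 (-0.93 to -0.23), and complexes III and IV of 0.02 (-0.55 to 0.60) and -0.32 (-0.71 to 0.06). These intervals are too narrow, since counts sat in few cells and were repeated over transcripts. With entries below 3 left out, complex I was nearly equal at 30 and 35 cycles and complex V was not lower at 35 cycles. Complex II went from 14 counts to 2. The median over all genes compared was -0.25, and relative to it the members as a whole lay at 0.10 (-0.08 to 0.28). Plasma cell markers went from 0.668% to 0.440% of human counts between the same libraries, and their part in these values was not tested.

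Between the platforms at 30 cycles, entries below 3 were first left out of 10X to match the smallest value of Drop-seq. That left 21 member counts among 48043 human counts in 10X, a share of 0.0437%, and the log2 ratio of Drop-seq to 10X was 5.66 (5.07 to 6.39). Over the 323 human genes compared, 69.3% were called higher in Drop-seq and 22.9% lower. Of the 10 members compared, 9 were listed at 0 in 10X and reached 50 counts through Drop-seq, so the minimum itself set their direction and it is not counted. NDUFB11, COX6C, ATP5F1A and COX7A2 had the most counts in Drop-seq among the 9. COX4I1 had 69 counts in Drop-seq and 3 in 10X, a log2 ratio of 3.83 (2.43 to 6.35). The median over all genes compared was 5.26, which depends on the pseudocount where genes are at 0 in 10X. Relative to it the members as a whole lay at 0.40 (-0.19 to 1.13) and COX4I1 at -1.43.

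With all entries as deposited, a comparison added after the data were seen, 41.6% of 666 human genes were called higher in Drop-seq and 44% lower. Here 12 members had 50 counts over both libraries, but 10 of them had at most 30 counts in 10X and passed through Drop-seq, so they had to be higher there and are given by their values alone. COX4I1 alone reached 50 counts in both libraries, with 69 and 73, and was called higher, at 1.19 (0.69 to 1.68). NDUFB8 had 12 counts in Drop-seq and 72 in 10X and passed through 10X, so its call is not read. Its log2 ratio was -1.27 (-2.33 to -0.42). Of the other 10, the smallest ratios were those of ATP5PF at 2.71 (2.10 to 3.38), SDHD at 3.66 (2.63 to 5.03) and COX7A2 at 3.73 (2.99 to 4.63). NDUFB11 had the highest ratio against a count above 0, at 6.37 (5.15 to 8.43). UQCRQ, COX6A1 and COX6C were listed at 0 in 10X, where entries of 1 are absent, and no ratio is given for them.

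At 35 cycles, with entries as deposited, 48.1% of 779 human genes were called higher in Drop-seq and 34.3% lower. Of 16 members 14 had at most 32 counts in 10X. Apart from ATP5MC1, with 22 counts in Drop-seq and 32 in 10X, they passed through Drop-seq, so their number called is not read. COX4I1 alone reached 50 counts in both libraries, with 81 and 79, and was called higher, at 1.13 (0.66 to 1.59). NDUFB8, with 16 counts in Drop-seq and 101 in 10X, again passed through 10X and stood at -1.53 (-2.43 to -0.80). The subunit c gene ATP5MC1 was not called (0.56, -0.30 to 1.38). UQCRQ, COX6C, ATP5F1A and NDUFB11 were listed at 0 in 10X. The comparisons at 30 and 35 cycles used many of the same barcodes on each platform.

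The members were short genes. The canonical transcripts of the 58 genes had a median of 716.5 bases, and 33 of them had at most 800 bases, while 11120 nuclear coding genes with counts had a median of 3424 bases. Among other nuclear coding genes with at most 600 bases the share in Drop-seq was 8.80 times that in 10X at 30 cycles, and the ratio was 3.13 from 601 to 800 bases, 2.66 from 801 to 1200, 1.10 from 1201 to 2000, 1.21 from 2001 to 4000 and 0.532 above that. Members had ratios of 13.2, 4.74, 5.20, 9.53, 5.40 and 21.4 in the same bins, which hold 18, 15, 9, 7, 7 and 2 members. Without ribosomal protein genes the other genes had ratios of 5.17, 4.70, 2.78, 0.958, 0.960 and 0.517. From 601 to 800 bases they were thus close to the members. At 35 cycles the ratio in that bin was 3.72 for those genes and 3.48 for the members. In the other bins with a ratio the members lay above them. These lengths are those of the canonical transcript and not of the molecules counted. The longest bin held ATP5F1A (5761 bases) and UQCRB (8459 bases), whose most abundant transcripts had 1945 and 595 bases. Length was looked at after these values were seen, and its part in the difference was not tested.

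**Figure D5:**
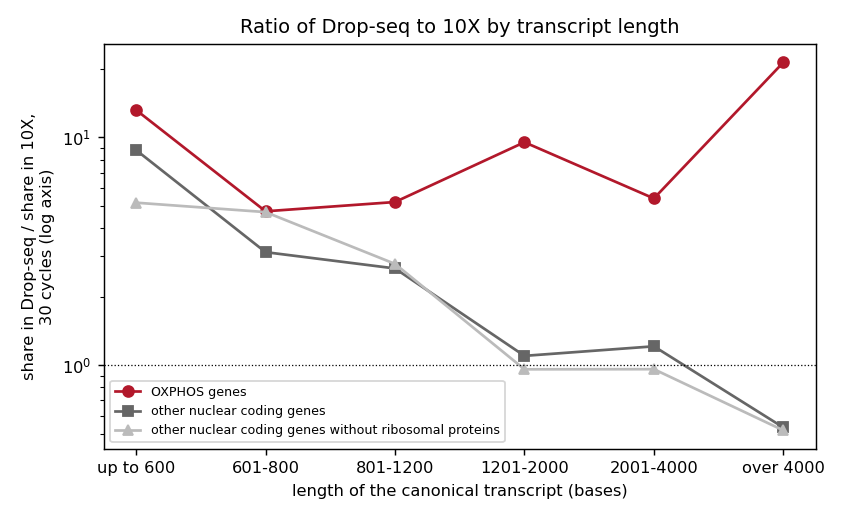
Ratio of the share of human counts in Drop-seq to that in 10X at 30 cycles (log axis) by length of the canonical transcript in bases, for the OXPHOS genes (red), other nuclear coding genes (dark grey) and the same without ribosomal protein genes (light grey). The grey lines fall from 8.80 and 5.17 in the shortest bin to 0.532 and 0.517 in the longest, and the lowest value of the red line is 4.74.

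Taken as lists, the further subunits, assembly factors and carriers showed the same order of platforms as the 58 genes, with smaller gaps. The regulators given below, with few counts, were listed in 10X alone. A further 20 subunit genes made up 0.373%, 0.396% and 0.336% of human counts in Drop-seq, against 0.219% and 0.125% in 10X. NDUFA5 of complex I, the highest of them, had 151, 105 and 123 counts in Drop-seq, against 23 and 8 in 10X, while NDUFV2, which binds an iron-sulphur cluster near the NADH site, had 49, 17 and 35 in Drop-seq, against 135 and 58 in 10X. At 30 cycles the ratio of Drop-seq to 10X was 1.81 for these 20 genes, as against 7.50 for the 58. Both lists were chosen with earlier results of these data known, so this gap is not read as a trait of the 58.

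The 47 assembly factors made up 0.207%, 0.298% and 0.270% in Drop-seq, against 0.0988% and 0.106% in 10X. COX11, a copper chaperone for complex IV, had 44, 16 and 32 counts in Drop-seq and was listed at 0 in 10X, and PET100, a complex IV assembly factor, had 48, 17 and 18 in Drop-seq, against 6 and 2 in 10X. The 6 carriers and inhibitors stood at 0.221%, 0.174% and 0.158% in Drop-seq, against 0.0500% and 0.0266% in 10X. Among them SLC25A5, an ADP/ATP carrier, had 84, 66 and 69 counts in Drop-seq, against 19 and 18 in 10X, and ATP5IF1, the inhibitor of ATP synthase, had 101, 27 and 46 in Drop-seq, against 4 and 0 in 10X. Between 30 and 35 cycles in 10X the log2 ratios of the further subunits, the assembly factors and the carriers were -0.81 (-1.05 to -0.57), 0.10 (-0.20 to 0.41) and -0.91 (-1.44 to -0.39). The same comparison in Drop-seq gave -0.24, -0.15 and -0.14, each within counting error of 0. At 30 against 25 cycles in Drop-seq they were 0.31 (0.06 to 0.56), 0.64 (0.33 to 0.95) and -0.57 (-0.91 to -0.24).

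The 7 tissue-restricted isoforms, such as COX4I2 and COX6A2 of lung and muscle, were listed at 0 in all 5 libraries. Of 8 regulators of mitochondrial biogenesis, 0 had counts in Drop-seq and 3 had counts in either 10X library, 19 and 9 in sum. GABPA had 8 and 4 counts in 10X and NRF1 had 9 and 0.

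The promoters of OXPHOS genes are known for sites of nuclear respiratory factor 1 (NRF1), a transcription factor of mitochondrial genes. RefSeq promoters on GRCh38.p14, from 250 bases before to 50 after the start site, matched 46 of the 58 genes by symbol. The NRF1 motif, written as GCGC followed by any base and then TGCGC and searched on both strands, was present in 12 of the 46 promoters (26.1%), in 6.28% of all 27305 promoters and in 12.3% of those of 9022 nuclear coding genes with counts. The GABPA motif CCGGAAG was present in 17 of the 46 (37.0%), 10.7% of all and 20.2% of those with counts, and the YY1 motif AAGATGGC in 7 (15.2%), 3.03% and 5.69%. None of the 3 motifs contains another. The windows of 30 bases around a match are shown for the 4 genes with the highest mean level among the 12. That mean covers more Drop-seq than 10X libraries, so it favours genes high in Drop-seq. The order of the platforms is therefore not read for these genes. Capitals mark the match.
ATP5F1C: gggagcttcgGCGCATGCGCgctgaggcct
ATP5PO: acgccaacgcGCGCGTGCGCccttgcgcgt
UQCR11: ccctccccgcGCGCGTGCGCgccgcggccg
SDHD: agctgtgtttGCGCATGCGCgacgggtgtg
They lie at chr10:7788145-7788174 (plus strand), chr21:33915809-33915838 (minus strand), chr19:1605472-1605501 (minus strand) and chr11:112086753-112086782 (plus strand). Such a match describes letters in a window and not binding.

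Members were also present in places where human cells were not. In mouse cells, the barcodes with at least 90% mouse counts, members made up 1.27% (1.10 to 1.46), 1.15% (0.754 to 1.68) and 0.530% (0.336 to 0.795) of the stray human counts in Drop-seq, which were 15403, 2258 and 4337 in number. In 10X they were 0 of 2136 and 4 of 3212 such counts. The Drop-seq shares in mouse cells were lower than in human cells of the same library, and the platforms stood in the same order. Pseudogenes and read-through genes related to members had few counts: 9 pseudogenes held 0 counts in Drop-seq, against 8 and 2 in 10X.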

How the data were processed

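The 5 UMI count matrices were used, while a further sample that holds read numbers alone was not. The authors deposited raw counts per barcode and Ensembl transcript. In their methods, Guppy called the bases, minimap2 mapped reads to human and mouse transcripts (hg38 in the submitters' processing notes), and UMI-tools or, for homotrimer UMIs, a set cover step grouped the UMIs. The grouping step used for Drop-seq and the filters behind the smallest stored values of 1, 3 and 2, are not given in the sources used here. All barcodes had 10 bases, so different cells could share one. Doublets were not called.

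Species came from the identifier prefix. Of 46484 human transcripts, 42740 got a gene from GENCODE release 44, later than the authors' annotation. Counts were summed over the transcripts of a gene. Shares have exact Clopper-Pearson intervals and ratios exact conditional binomial intervals (95%), for counting error only, since molecules were copied by PCR. Log2 ratios of single genes and of lists used a pseudocount of 0.5, a minimum of 50 counts over both libraries for a gene, and a 2-fold rule of size. Where smallest values differed, entries under the larger one, 3, were left out. The 3 highest members of each complex, the 4 highest and 4 lowest ratios of a comparison, the subunit c genes and the 2 highest genes of other lists were named; others were named after their values were seen. Comparisons with entries as deposited, complexes with further subunits, cell and gene pairs, transcript length and promoter motifs were added after the data were seen. The members and gene lists were chosen with earlier results of these data known. The ratio script was tested on simulated counts. Scripts ran under Python 3.11.15 and used scipy 1.17.1 for intervals, pandas 2.3.3, matplotlib 3.10.9 and numpy 2.4.6.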

Additional observations from a re-analysis of the deposited data

Results flagged for a closer look

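The log2 ratios of complexes I, II and IV at 35 against 30 cycles had opposite signs on the platforms, with 1 library on each side, and the difference was not tested. For complex I the ratio was 0.30 in 10X (0.01 to 0.60) and -0.057 in Drop-seq (-0.24 to 0.13). For complex II it was -2.84 in 10X (-6.29 to -0.98), from 14 and 2 counts, and 0.25 in Drop-seq (-0.23 to 0.76). For complex IV it was -0.32 in 10X (-0.71 to 0.06) and 0.047 in Drop-seq (-0.13 to 0.23). All 3 Drop-seq intervals and the 10X interval of complex IV include 0. Every interval here treats counts as independent and is too narrow.

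Member counts also lay outside the human and mouse cells, on barcodes that enter no comparison. They made up 1.99%, 1.75% and 1.91% of human counts there in the 25-cycle, 30-cycle and 35-cycle Drop-seq libraries, and 0.294% and 0.240% in the 30-cycle and 35-cycle 10X libraries. In Drop-seq these shares lay below those in human cells of the same library, with intervals that did not overlap (1.95 to 2.02 at 25 cycles, 1.66 to 1.83 at 30 cycles and 1.85 to 1.98 at 35 cycles). In 10X the intervals overlapped those in human cells (0.261 to 0.330 at 30 cycles and 0.217 to 0.265 at 35 cycles).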

How the results depend on the processing

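No paired analysis was possible because every group was 1 library, and for the same reason no library could be left out of a group. The values below are shares of human counts (%), log2 ratios or numbers of members called, and their causes were not tested beyond what each alternative changes by its construction. Among the alternatives, 283 values for shares, ratios and counts of calls stayed within the counting interval or within 1.5 times the count, and 104 moved. Over all alternatives the share of the 58 genes ran from 2.12% to 2.37%, 2.13% to 2.37% and 2.09% to 2.36% in the 25-cycle, 30-cycle and 35-cycle Drop-seq libraries, and from 0.0437% to 0.368% and 0.0780% to 0.366% in the 30-cycle and 35-cycle 10X libraries. Platform and human cells cannot be told apart, intervals cover counting error only, and most members rest on few cells.

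With 0.5 of the labelled number of barcodes, the share of the 58 genes was 2.37% in the 25-cycle Drop-seq library. In the same setting complex I was 0.142% in 10X at 35 cycles, complex II was 0.0251% in Drop-seq at 30 cycles, complex III was 0.342% and 0.389% in Drop-seq at 30 and 35 cycles, complex IV was 0.723% in Drop-seq at 25 cycles, and complex V was 0.0790% in 10X at 30 cycles and 0.521% and 0.469% in Drop-seq at 30 and 35 cycles. With all barcodes of at least 100 counts, the share was 2.36% in Drop-seq at 35 cycles, complex III was 0.0197% in 10X at 30 cycles and complex V was 0.622% in Drop-seq at 35 cycles. In that setting 3 of 23 members were called higher at 30 against 25 cycles in Drop-seq, beside 73 of 619 human genes. At 35 against 30 cycles 1 of 22 members was called lower, beside 32 of 711 human genes.

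At a purity of at least 80%, complex IV was 0.694% in Drop-seq at 25 cycles. In Drop-seq at 30 against 25 cycles 1 of 24 members was called lower, beside 107 of 653 human genes. At 35 against 30 cycles 1 of 21 members was, beside 22 of 668. At a purity of at least 95%, the share was 2.13% in Drop-seq at 30 cycles. Complexes I, II, IV and V were then 0.709%, 0.0236%, 0.529% and 0.614% in Drop-seq at 25 cycles, complexes III and IV were 0.240% and 0.574% at 30 cycles, and complex IV was 0.617% at 35 cycles. At 30 against 25 cycles the log2 ratio became -0.19. Of 15 members 3 were called higher and 5 lower, beside 81 and 118 of 370 human genes. The ratios of ATP5MC2, ATP5MF and NDUFB9 reversed, to 3.64, 4.02 and -0.33.

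With entries below 3 left out, the share was 0.0437% and 0.0780% in 10X at 30 and 35 cycles, and the log2 ratio between them became 0.81. In the same order complex I was 0.0375% and 0.0378%, complex II 0% and 0%, complex III 0% and 0.00709%, complex IV 0.00624% and 0.0296%, and complex V 0% and 0.00355%. In Drop-seq at 25 cycles complexes II and III were 0.0672% and 0.261%. With entries as deposited, added after the data were seen, the platform log2 ratio was 2.91. Of 12 members 1 was called lower, NDUFB8, which passed the minimum through 10X, beside 293 of 666 human genes. At 30 against 25 cycles in Drop-seq 1 of 23 members was called lower, beside 98 of 716.

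With the highest transcript per cell and gene in place of the sum, the share was 0.264% in 10X at 30 cycles, and 2.12% and 2.09% in Drop-seq at 25 and 35 cycles. Complex I was 0.125% and 0.150% in 10X, and 0.615% and 0.720% in Drop-seq at 25 and 30 cycles. Complex III was 0.0218% in 10X at 30 cycles, and complex IV was 0.0462% and 0.0360% in 10X, and 0.576% and 0.609% in Drop-seq at 25 and 35 cycles. Complex V was 0.558%, 0.435% and 0.368% in Drop-seq, against 0.0598% and 0.0391% in 10X. Under this count 2 of 2 members were called higher between the platforms, beside 81 of 160 human genes. Those 2 passed the minimum through Drop-seq. At 30 against 25 cycles 0 of 13 members were called higher and 1 lower, beside 4 and 35 of 266 human genes.

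Without mitochondrial-genome and immunoglobulin genes in the denominator, the share was 0.368% and 0.366% in 10X at 30 and 35 cycles. Complex I was 0.119% and 0.163%, complex III 0.0407% at 35 cycles, complex IV 0.0870% and 0.0766%, and complex V 0.115% and 0.0847%, and the platform log2 ratio was 4.82. Without the 10 human cells with the most human counts, also added later, the share was 2.37% in Drop-seq at 30 cycles. Complexes I and IV were then 0.616% and 0.576% at 25 cycles, complex II was 0.117% and 0.134%, complex V 0.731% and 0.590% at 30 and 35 cycles, complex III was 0.213% at 30 cycles, all in Drop-seq, and complex II was 0% in 10X at 35 cycles.

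Scaled to the median of ratios, the log2 ratio was 0.10 for 10X at 35 against 30 cycles. For Drop-seq at 30 against 25 cycles it was 0.14. There 2 of 22 members were called higher and 1 lower, beside 93 and 87 of 602 human genes. Between the platforms it was 0.40, with 1 of 10 members lower, beside 158 of 323 human genes, and COX4I1 reversed to -1.43. With a minimum of 20 counts, 2 of 11 members were called higher and 3 lower for 10X, beside 343 and 612 of 2163 human genes. For Drop-seq 2 and 3 of 34 were called at 35 against 30 cycles, beside 127 and 116 of 1443. At 30 against 25 cycles they were 3 and 5 of 33, beside 255 and 235 of 1260. Between the platforms 22 of 23 were called higher, beside 662 of 873. All 58 members had 21 counts in 10X there, so the 22 passed through Drop-seq and their number is not read. With a minimum of 100 counts, 3 of 3 were called higher between the platforms, again through Drop-seq, beside 88 of 145 human genes. At 30 against 25 cycles 0 of 12 were called higher and 1 lower, beside 17 and 38 of 272. With the deeper library thinned, 0 members could be compared between the platforms, so 0 were called. At 30 against 25 cycles 0 of 18 were then called higher, beside 53 of 522 human genes. Over barcodes that were human cells in both libraries, 0 of 19 were called higher at 30 against 25 cycles, beside 48 of 528 human genes.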
